A study of Arabidopsis thaliana with 30 samples.

Results

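The genes described here are 138 Arabidopsis probe sets, of 22746 measured, whose transcripts fell after 3 h of added far-red light both in the wild type and in pifq, a mutant in 4 PIF genes (pif1, pif3, pif4 and pif5). The members were chosen from the deposited values themselves. A probe set, the group of array probes that reads 1 transcript or several close ones, was taken if its mean fell by at least 1 on the log2 scale, which is 2-fold, from WL0 (before far-red light) to FR3 (3 h of it) in the wild type and in pifq. This was met by 438 in the wild type (1.93%), 176 in pifq (0.774%) and 147 in both (0.646%). Of these, 9 were set aside by symbol, namely DFR, UF3GT, CHIL, UGT78D1 and UGT78D2 of flavonoid synthesis and modification, ATSPS4F, RR16, XTH32 and EXPB3, which left 138 members. The fall at 3 h is therefore how they were found and is described here without a test. So is every other difference in level that takes in the WL0 or FR3 arrays.

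Light filtered through leaves is rich in far-red, and seedlings answer it by raising some transcripts and lowering others. Red and far-red light set the state of the phytochrome receptors, and in red-rich light active phytochrome brings about the removal of the PIF transcription factors. Under far-red light PIF proteins accumulate and act on growth genes, while many genes that light keeps active, such as those of pigment synthesis and plastid build-up, are turned down.

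The seedlings were Columbia wild type (WT) and pifq, each in 5 conditions with 3 biological replicates grown separately. After 5 days at 4 °C in the dark, all grew without sucrose at 21 °C under white light (19 µmol/m2/s, with a red to far-red ratio of 6.48), and WL0 was sampled after 2 days. Supplementary far-red light then took the ratio down to 0.006. FR1, FR3 and FR24 had it for 1, 3 and 24 h, and controls of the same age as FR24 had 24 h more of white light (WL24). RNA came from whole seedlings, and pifq is 1 mutant line whose background the labels do not give, so the mutations and the line cannot be told apart. Levels are log2 RMA signals, in which 1 unit is a 2-fold step, and changes are log2 differences ± SE from limma; its adjusted p-values are Benjamini-Hochberg values over all 22746 probe sets, with a call at under 0.05.

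The genotype label could not be read from the 4 PIF genes, since the annotation names no probe set for them. The correlation was 0.9945 to 0.9983 within groups and at least 0.9577 between groups, and 0 pairs of arrays held identical values. Of 6 green-tissue markers 1 was named, the Rubisco activase gene RCA, at 13.64 to 14.02 over all arrays. Of 6 root hair markers 2 were named, the expansin genes EXPA7 and EXPA18, and their mean level moved with the members, as given beside the results below.

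Only part of the 138 members can be named. A single gene locus was given for 59 of them (42.8%, against 59.1% of all probe sets), several genes for 4, and no gene for 75. Of the 59 loci 7 carried a gene symbol in the platform annotation; AT5G64120 (PRX71) and AT1G68570 (NPF3.1) are named from the RefSeq table's synonyms, and the others are given by locus. The 7 were RH39 (AT4G09730), OTP81 (AT2G29760), Cpn60beta2 (AT3G13470), Prx37 (AT4G08770), ARPN (AT2G02850), scpl35 (AT5G08260) and GTR1 (AT3G47960). Flavonoid genes make up much of what was set aside: of 25 listed flavonoid and phenylpropanoid genes 7 had a named probe set, and 5 of the 7 met the 2-fold rule. Genes were set aside by symbol only, so members given by locus or with no gene may still include flavonoid genes. The counts for this list and those below likewise cover only genes that the annotation names. Of 27 listed genes of blue and UV-B light response and photoprotection 3 had one, and 2 of these are members (AT3G44450 and AT3G52740). GTR1 is the only member among the 5 named glucosinolate genes of 23 listed. None of the 5 named chlorophyll, haem and carotenoid genes of 22 listed, the 8 photosystem, antenna and Rubisco genes of 18, the 4 ascorbate and antioxidant genes of 12, the 3 sulfate genes of 15 or the 2 cytokinin genes of 16 is a member, RR16 of the last list having been set aside.

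**Figure D1:**
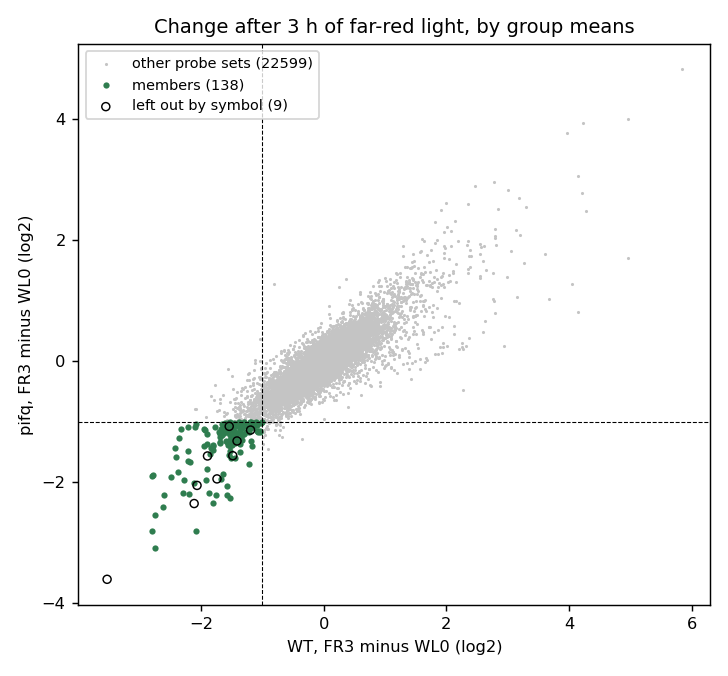
Change from WL0 to FR3 by group means (log2, 3 arrays per group), WT on the horizontal and pifq on the vertical axis, for every probe set. Dashed lines mark the 2-fold fall that chose the 138 members (green); open circles are the 9 set aside by symbol.

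Members began well above the typical probe set and reached their fall in steps. At WL0 their median level was 7.74 in the wild type and 7.86 in pifq, where the median of all probe sets was 5.59 and 5.61. The rule itself favours a high WL0 level, since a probe set near the lowest signals cannot fall 2-fold. At 1 h the level had dropped for 137 of 138 members in the wild type and for all 138 in pifq, with a median change of -0.76 and -0.52. The median of all probe sets was -0.03 and -0.01, and these changes share the WL0 arrays with the choice of members. The median member had gone through 49.1% of its 3 h fall by 1 h in the wild type and 39.8% in pifq. At 3 h the median change was -1.54 in the wild type and -1.20 in pifq, and the wild-type fall was the larger for 112 of the 138. More probe sets met the cut in the wild type than in pifq (438 and 176), so this count does not set the members apart. WL0 seedlings were harvested before the far-red step and are younger by its length, so light and elapsed time cannot be told apart in these values. As whole seedlings were measured, fewer cells that express a gene and less RNA per cell cannot be told apart either.

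The speed of the fall differed from gene to gene. AT3G44450, from the list of blue and UV-B light response genes, had completed its fall within 1 h. Its wild-type arrays read 6.33, 6.21 and 6.58 at WL0, 4.91, 4.75 and 4.50 at FR1 and 4.89, 4.90 and 4.58 at FR3. In pifq they read 7.13, 7.12 and 6.82, then 4.93, 4.88 and 4.87, then 4.78, 5.08 and 5.05. AT1G65490 was the opposite case and barely moved in the first hour: its wild-type arrays read 8.94, 8.82 and 8.82 at WL0, 8.77, 8.52 and 8.76 at FR1 and 6.67, 6.27 and 6.44 at FR3. In pifq the same locus went from 8.74, 9.21 and 8.84 to 8.44, 8.80 and 8.57 and then 7.41, 7.28 and 7.37, so that most of its fall lay between 1 h and 3 h in both lines. AT2G43550 fell late too, by 0.48 and by 0.46 at 1 h and by 1.90 and by 1.78 at 3 h in the wild type and pifq.

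By the mean of both falls, the deepest among members with a single locus were AT2G23910, AT1G13650 and AT3G28270. AT2G23910 read 6.40, 6.72 and 6.74 at WL0 and 4.61, 4.51 and 4.49 at FR3 in the wild type, and 7.49, 7.71 and 7.62 and 4.55, 4.85 and 5.00 in pifq. It thus began higher in pifq, and the FR3 arrays of the lines overlapped. AT1G06000, AT5G42760, AT1G23205, AT1G28600, AT4G14090, AT1G65490, AT1G60590 and AT5G62210 followed, with changes of -1.53 to -2.49 in the wild type and of -1.44 to -2.26 in pifq. Among probe sets that the annotation gives no gene, the deepest by the same measure was 254283_s_at, with changes of -2.80 and -2.81. At the threshold, the 3 members nearest to it were AT4G30650 (-1.002 and -1.007 in the wild type and pifq), 256601_s_at (-1.301 and -1.003) and 255465_at (-1.524 and -1.004). Just outside lay 260425_at (-0.998 and -1.03), 251735_at (-1.15 and -0.994) and 264347_at (-0.998 and -0.994).

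Products of 3 of the named members work in plastids. RH39 encodes a DEAD-box RNA helicase that takes part in the maturation of plastid ribosomal RNA. Its wild-type arrays read 6.21, 6.36 and 6.50 at WL0 and 4.83, 4.79 and 4.84 at FR3. In pifq they read 6.63, 6.30 and 6.65 and 4.82, 5.27 and 5.30. OTP81 encodes a pentatricopeptide repeat protein for the editing of plastid transcripts, and read 5.86, 5.56 and 5.69 and then 4.05, 4.15 and 4.05 in the wild type, and 6.01, 5.80 and 5.97 and then 4.59, 4.66 and 5.09 in pifq. Cpn60beta2 encodes a subunit of the plastid chaperonin, which folds newly made or imported proteins, and was the brightest of the 7. It read 10.99, 11.05 and 11.06 at WL0 and 9.45, 9.44 and 9.54 at FR3 in the wild type, and 11.18, 11.11 and 11.25 and 9.82, 10.05 and 10.21 in pifq. In all 3 genes no FR3 array reached the lowest WL0 array of its line, as the rule that chose them makes likely.

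Another 3 named products are secreted proteins or enzymes. Prx37 encodes a class III peroxidase, an enzyme type that works in the cell wall, and read 5.19, 4.96 and 5.10 at WL0 and 3.45, 3.56 and 3.63 at FR3 in the wild type. In pifq it read 5.27, 5.09 and 5.49 and 3.81, 3.93 and 4.18. A second peroxidase gene, PRX71 (AT5G64120), read 8.21, 8.50 and 8.35 and 6.49, 6.47 and 6.24 in the wild type and 7.96, 8.31 and 8.03 and 6.77, 7.12 and 7.04 in pifq. ARPN encodes plantacyanin, a small extracellular blue copper protein, and scpl35 a serine carboxypeptidase-like protein. Their changes at 3 h were -1.12 and -1.59 in the wild type and -1.03 and -1.32 in pifq.

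Of the members with a gene name, GTR1, a glucosinolate transporter, and NPF3.1 (AT1G68570), of the same transporter family, carry solutes across membranes. Members given by locus only were not sorted by function. GTR1 read 6.74, 6.87 and 6.62 at WL0, 5.66, 5.73 and 5.83 at FR1 and 5.23, 5.00 and 5.28 at FR3 in the wild type. In pifq it read 6.95, 6.91 and 6.99, 6.17, 6.27 and 6.37 and 5.70, 5.91 and 6.02. NPF3.1 changed by -1.22 in the wild type and by -1.18 in pifq at 3 h.

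**Figure D2:**
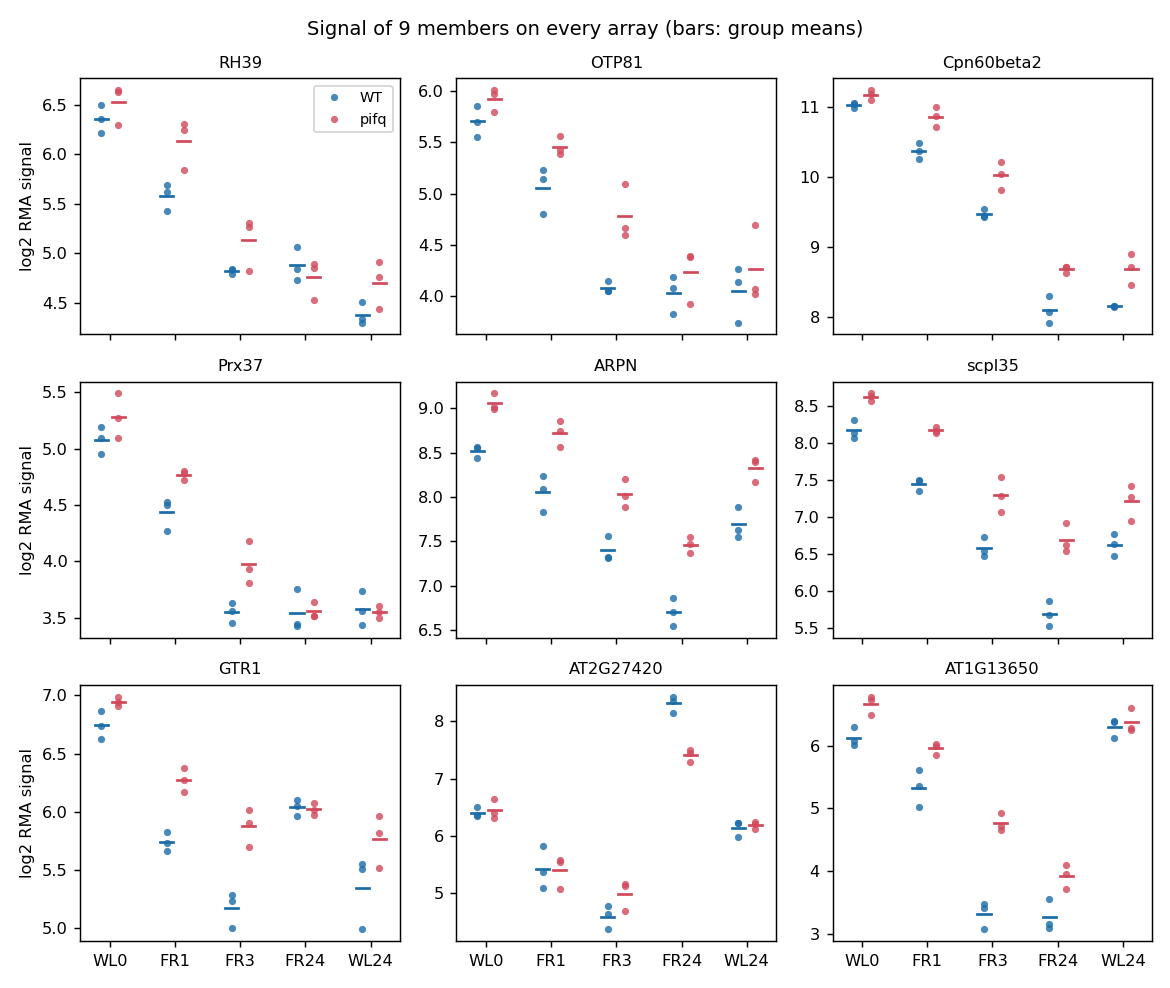
Log2 RMA signal of 9 members on each of the 30 arrays, by condition, WT in blue and pifq in red, with bars at group means. AT2G27420 rose above its WL0 level at FR24, and AT1G13650 was low at FR3 and FR24 but not at WL24.

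By 24 h the members no longer stood below their white-light control as a group. Many had also declined in white light between day 2 and day 3: from WL0 to WL24 the median change was -1.39 in the wild type and -1.36 in pifq, where the median of all probe sets was 0.02 and 0.06. In far-red light the level at FR24 stood at a median of -1.14 against WL0 in the wild type and -1.24 in pifq. Against WL0, 75 of 138 members were at least 2-fold lower at FR24 in the wild type, and 87 were at WL24. These values share the WL0 arrays with the choice of members and carry no test.

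**Figure D3:**
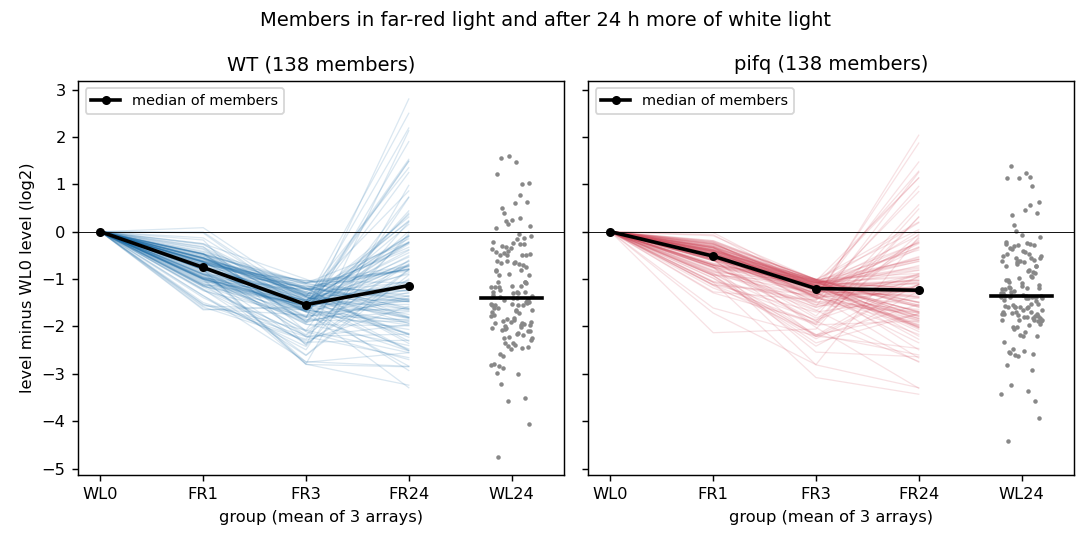
Level of each of the 138 members minus its own WL0 level (log2, means of 3 arrays) in WT and pifq, as lines over WL0, FR1, FR3 and FR24 and as grey points at WL24; black marks the median. The median ended at -1.14 (FR24) and -1.39 (WL24) in WT and at -1.24 and -1.36 in pifq.

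Far-red against white light at 24 h uses none of the arrays that chose the members. In the wild type 65 of 138 members were called higher in FR24 than in WL24 and 20 lower, or 47.1% and 14.5%, where 11.6% of all probe sets were called in each direction. Members are brighter than most probe sets, and brighter ones are called more often. With a brightness filter of 5.59 (log2), 87 of 133 members were called in either direction, against 39.8% of the probe sets kept. The median member differed by 0.30 in the wild type, against 0.00 for all probe sets. In pifq 37 members were called higher (26.8%, against 7.6% of all probe sets) and 17 lower (12.3%, against 7.25%), with a median of 0.04 against -0.03. The calls ran the same way in both lines for 46 members, 33 higher and 13 lower, and 0 were called in opposite directions. The same count was not made over all probe sets, so it does not set the members apart. The root hair expansin genes moved the same way: the mean of EXPA7 and EXPA18 was 8.19 to 8.33 on the wild-type WL0 arrays and 7.19 to 7.35 at FR3, and 6.88 to 7.17 at FR24 against 6.12 to 6.39 at WL24. In pifq it was 8.29 to 8.57 at WL0, 7.59 to 7.72 at FR3, 7.06 to 7.08 at FR24 and 6.66 to 6.83 at WL24. The green-tissue marker RCA was also called higher in FR24 in the wild type, at 13.91 to 14.02 against 13.75 to 13.82 (0.19, adjusted p = 0.0337), and differed by 0.09 in pifq (adjusted p = 0.352). The part of root hair cells and of green tissue in the members' changes was not tested. The excess of higher calls was less marked among the 59 members with 1 locus, from which the named genes come: 25 were called higher and 13 lower in the wild type, with a median of 0.09, and 13 higher and 11 lower in pifq, with a median of 0.01.

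Members that were repressed at 3 h and higher than the control at 24 h included some of the largest 24 h differences. AT2G27420 read 8.35, 8.42 and 8.15 at FR24 and 6.22, 5.99 and 6.22 at WL24 in the wild type, a difference of 2.16 ± 0.15 (adjusted p = 1.35e-12). In pifq it read 7.49, 7.28 and 7.45 and 6.20, 6.12 and 6.24, a difference of 1.22 ± 0.15 (adjusted p = 4.93e-07). The groups did not overlap in either line, and the FR24 arrays also stood above every WL0 array. AT2G23910 read 7.28, 7.31 and 7.47 at FR24 against 5.92, 5.24 and 4.86 at WL24 in the wild type (2.01 ± 0.18, adjusted p = 4.44e-10). In pifq it was above the control by 1.50 ± 0.18 (adjusted p = 4.11e-07). AT1G78450 was above the control by 1.67 ± 0.13 in the wild type and by 1.55 ± 0.13 in pifq (adjusted p = 1.99e-11 and 3.04e-10). AT3G44450, AT1G07050 and AT1G13610 were higher by 1.82, 1.54 and 1.21 in the wild type and by 0.93, 0.84 and 0.68 in pifq, all 6 values called. AT5G62210 had the third largest positive difference in pifq among members with 1 locus, at 1.47 ± 0.16 (adjusted p = 9.60e-08), beside 1.16 ± 0.16 in the wild type. Its FR24 level was nonetheless below WL0, by -1.12 in pifq and -0.39 in the wild type, so it was the control that stood lower still. AT3G52740, the other member from the blue and UV-B light list, was above the control by 0.82 ± 0.12 in the wild type (adjusted p = 6.38e-06), and in pifq differed by 0.31 ± 0.12 (adjusted p = 0.0926).

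The largest 24 h difference of any member belonged to 258321_at, a probe set with no gene in the annotation, named here after its values were seen. It read 10.09, 10.07 and 10.25 at WL0 and 8.63, 8.21 and 8.63 at FR3 in the wild type, then 9.45, 9.40 and 9.52 at FR24 and 5.40, 5.16 and 5.59 at WL24. Its FR24 level was thus above FR3 but still below WL0, and its WL24 level was the lowest of the 5 conditions. The 24 h difference was 4.07 ± 0.17 in the wild type and 3.29 ± 0.17 in pifq (adjusted p = 6.54e-18 and 3.62e-15).

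Other members were below the control at 24 h. AT1G13650 read 3.42, 3.08 and 3.47 at FR3, 3.16, 3.10 and 3.56 at FR24 and 6.39, 6.11 and 6.38 at WL24 in the wild type. In pifq it read 4.65, 4.73 and 4.93, 3.96, 3.71 and 4.1 and 6.25, 6.60 and 6.27. It was low at FR3 and FR24 and near its WL0 level at WL24, and the FR24 level was below the control by 3.02 ± 0.14 in the wild type and 2.45 ± 0.14 in pifq (adjusted p = 1.34e-16 and 6.81e-14). ARPN read 6.86, 6.55 and 6.70 at FR24 and 7.55, 7.89 and 7.63 at WL24 in the wild type, and 7.55, 7.47 and 7.37 and 8.39, 8.41 and 8.17 in pifq. It differed by -0.99 ± 0.11 and -0.86 ± 0.11 (adjusted p = 3.39e-08 and 1.31e-06). The gene scpl35 read 5.68, 5.53 and 5.87 at FR24 and 6.47, 6.77 and 6.64 at WL24 in the wild type, lower by 0.94 ± 0.12 (adjusted p = 4.38e-07), and was lower by 0.52 ± 0.12 in pifq (adjusted p = 0.00314). NPF3.1 was lower by 0.61 ± 0.11 and 0.55 ± 0.11 (adjusted p = 0.000144 and 0.00112). AT4G02850 and AT2G40435 were lower by 1.40 and 1.15 in the wild type and by 0.64 and 0.55 in pifq. The pifq call for AT2G40435 ended without any 1 of 5 of the 6 arrays (highest adjusted p = 0.16). That for PRX71, whose pifq difference was -0.58 ± 0.18 (adjusted p = 0.0265), ended without any 1 of 4 (highest adjusted p = 0.154).

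Of the named plastid genes, Cpn60beta2 and OTP81 had no called far-red difference at 24 h in either line. Cpn60beta2 read 7.93, 8.08 and 8.31 at FR24 and 8.16, 8.16 and 8.17 at WL24 in the wild type, groups that overlap, both far under its WL0 values above. It differed by -0.06 ± 0.10 in the wild type and -0.01 ± 0.10 in pifq (adjusted p = 0.77 and 0.966). OTP81 differed by -0.02 ± 0.16 and -0.03 ± 0.16 (adjusted p = 0.956 and 0.933). Prx37 behaved likewise (-0.03 ± 0.11 and 0.01 ± 0.11, adjusted p = 0.87 and 0.968), at 3.43 to 3.76 on the 6 wild-type arrays, well under the array medians of 5.56 to 5.64. RH39 was called higher in FR24 in the wild type, with 4.84, 4.73 and 5.07 against 4.51, 4.34 and 4.3 (0.50 ± 0.14, adjusted p = 0.0075), but not without WT FR24 replicate 3 (adjusted p = 0.0606). In pifq RH39 differed by 0.06 ± 0.14 (adjusted p = 0.836). GTR1 was higher in the wild type, at 6.05, 6.10 and 5.96 against 5.51, 5.55 and 4.99 (0.69 ± 0.12, adjusted p = 4.04e-05), and differed by 0.25 ± 0.12 in pifq (adjusted p = 0.148).

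**Figure D4:**
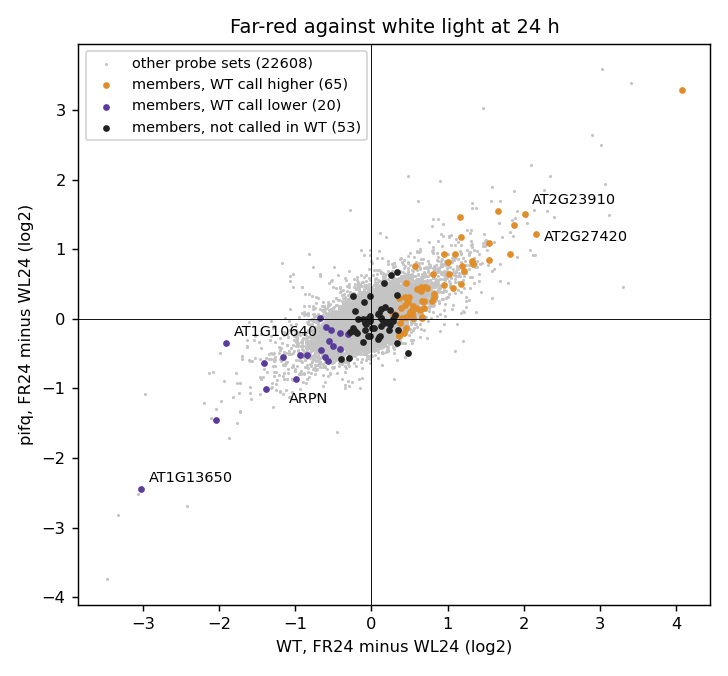
FR24 minus WL24 (log2, limma) in WT and pifq for the 138 members, coloured by their call in WT, over all other probe sets in grey. In WT 65 members were called higher and 20 lower; the point at the upper right is 258321_at.

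Other genes of the listed pathways give the setting for these values. Of all probe sets 11.6% were called in each direction at 24 h in the wild type. In pifq 7.6% were called higher and 7.25% lower. At FR1 7.08% were called higher in pifq than in the wild type. The lists hold few genes and were not tested against these shares. Of the 7 flavonoid genes with a named probe set, 2 were called higher and 1 lower in FR24 than in WL24 in the wild type, and 1 higher in pifq. At FR1 6 of the 7 were called higher in pifq than in the wild type; DFR, the enzyme that commits flavonoids to anthocyanin, was higher by 1.44 (adjusted p = 3.45e-06). Of the 3 genes of blue and UV-B light response, 2 were called higher and 1 lower at 24 h in the wild type, and 1 in each direction in pifq. The lower one was HYH, a bZIP transcription factor gene of light signalling and no member, with differences of -0.26 and -0.50 (adjusted p = 0.0414 and 0.000385). Of the 5 glucosinolate genes 2 were called higher at 24 h in the wild type and 1 lower in pifq, and 3 were higher in pifq at FR1. Of the 5 chlorophyll, haem and carotenoid genes 3 were called lower at 24 h in the wild type and 2 in pifq. Of the 8 photosystem, antenna and Rubisco genes 2 were called in each direction in the wild type and 1 higher in pifq, and their median change at 3 h was 0.23 and 0.27. Of the 4 ascorbate and antioxidant genes 1 was called in each direction in each line. The 3 sulfate genes gave 0 calls in the wild type and 1 lower in pifq, and the 2 cytokinin genes 1 and 2 lower.

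A pair of loci had a second probe set that is not a member. For AT5G50740 it changed by -1.14 and -0.95 at 3 h in the wild type and pifq, where the member changed by -1.40 and -1.31. At 24 h both probe sets were below the control in the wild type, with differences of -0.83 and -0.85. For AT1G79150 the second probe set changed by -0.69 and -1.25 at 3 h and the member by -1.08 and -1.15, and neither was called at 24 h in the wild type.

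Genes close together on a chromosome did not always share this later course. By gene order in the TAIR10.1 annotation, AT1G13610 and AT1G13650 have 4 protein-coding genes between them. They fell together at 3 h, by 1.67 and by 2.80 in the wild type, and at 24 h the first was 1.21 above and the second 3.02 below the white-light control. AT2G25510 and AT2G25530, with 1 gene between them, differed from the control by 0.95 and -0.08. The third such pair, AT5G42720 and AT5G42760 with 2 genes between them, differed by -0.19 and 0.64. All pairs with at most 5 protein-coding genes between them were looked at, and 3 were found.

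Whether the 24 h response differed between the lines was tested by its interaction, the pifq difference minus the wild-type difference. It was called for 17 of 138 members (12.3%, against 3.75% of all probe sets), negative for 13 (9.42%, against 1.53%) and positive for 4 (2.9%, against 2.22%). AT1G10640 had the largest, at 1.55 ± 0.17 (adjusted p = 7.95e-07). Its wild-type arrays read 5.88, 6.02 and 5.72 at FR24 and 7.87, 7.66 and 7.81 at WL24, a difference of -1.91 ± 0.12 (adjusted p = 2.52e-13). In pifq they read 6.73, 6.66 and 6.95 and 7.15, 7.09 and 7.16, closer together on both sides. The pifq difference of -0.35 ± 0.12 was called (adjusted p = 0.0458), but not without any 1 of 5 of the 6 arrays (highest adjusted p = 0.165). AT4G02850 was also less far below the control in pifq, with an interaction of 0.77 ± 0.17 (adjusted p = 0.00863). AT2G27420 and AT3G44450 were less far above the control in pifq, with interactions of -0.94 ± 0.21 and -0.90 ± 0.20 (adjusted p = 0.00714 and 0.00696).

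The median member stood higher in pifq than in the wild type, by most at FR3 and FR1 and by only 0.06 at FR24. At FR24 53 of the 138 members were lower in pifq. At FR1, whose arrays the choice did not use, 81 members were called, all higher in pifq (58.7%, against 13.6% of all probe sets, 7.08% being higher and 6.56% lower). With the brightness filter 86 of 133 members were called, against 27.2% of the probe sets kept. By limma's unadjusted p under 0.05, 0 members were lower and 101 higher. The share of all probe sets under this unadjusted cut was not counted, so these counts alone do not set the members apart. All 3 pifq arrays lay above all 3 wild-type arrays for 101 members (73.2%, against 15.3% of all probe sets). The median difference was 0.41, against 0.01 over all probe sets. The root hair expansin mean was 8.18 to 8.26 in pifq and 7.73 to 7.85 in the wild type at FR1, and its part in this result was not tested. On the arrays that chose the members the median difference was 0.18 at WL0 and 0.44 at FR3, given without a test.

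Among single loci AT5G62210 and AT4G14090 differed most at FR1. AT4G14090 read 5.78, 5.64 and 5.89 in pifq and 4.68, 4.69 and 4.72 in the wild type, higher by 1.07 ± 0.11 (adjusted p = 6.38e-08). AT5G62210 read 6.33, 6.24 and 5.95 and 4.80, 5.12 and 5.19, higher by 1.14 ± 0.16 (adjusted p = 1.31e-05). By FR24 neither was called between the lines, at 0.10 and 0.39 (adjusted p = 0.673 and 0.144). AT2G23910 and AT3G15720 were higher by 0.81 and 0.79 at FR1 (adjusted p = 0.00265 and 0.000802). Of the 7 genes with symbols 6 were called higher in pifq at FR1. ARPN read 8.75, 8.56 and 8.85 in pifq and 8.23, 8.09 and 7.83 in the wild type (0.67 ± 0.11, adjusted p = 0.000102). For scpl35 the arrays read 8.13, 8.17 and 8.21 and 7.50, 7.49 and 7.35 (0.73 ± 0.12, adjusted p = 0.000108). Cpn60beta2, GTR1, RH39 and Prx37 were higher by 0.49, 0.53, 0.55 and 0.33. The RH39 call ended without pifq FR1 replicate 1 (adjusted p = 0.0546), and that for Prx37 without any 1 of 5 of the 6 arrays (highest adjusted p = 0.221). OTP81 differed by 0.40 ± 0.16 (adjusted p = 0.0959).

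In the 24 h conditions fewer members were called between the lines; whether the difference itself changed from FR1 was not tested. At WL24 46 members were called higher in pifq and 2 lower (33.3% and 1.45%, where 8.6% of all probe sets were called, 4.3% in each direction), with a median of 0.24 against 0.01. The 2 lower were AT1G65490 (-0.41) and AT1G10640 (-0.64 ± 0.12, adjusted p = 0.000765); the first was not called without WT WL24 replicate 3 or pifq WL24 replicate 3 (adjusted p = 0.0517 and 0.0735). AT4G34290 was the most raised locus at WL24. Its arrays read 8.24, 8.23 and 8.29 in pifq and 7.32, 7.52 and 7.45 in the wild type, a difference of 0.82 ± 0.10 (adjusted p = 1.51e-06). The root hair expansin mean at WL24 was 6.66 to 6.83 in pifq and 6.12 to 6.39 in the wild type. At FR24 22 members were called higher and 13 lower in pifq (15.9% and 9.42%, against 4.47% and 3.85%), with a median of 0.06 against -0.02. There scpl35 was higher by 1.00 ± 0.12 (adjusted p = 6.35e-07), Cpn60beta2 by 0.58 ± 0.10 and ARPN by 0.76 ± 0.11 (adjusted p = 0.000265 and 1.64e-05). All 3 were also called higher in pifq at FR1 and WL24. AT5G45650 and AT4G30650 were higher at FR24 by 0.87 and 0.81, and AT1G13650 by 0.65. In the other direction AT2G27420 was lower in pifq at FR24 (-0.90 ± 0.15, adjusted p = 9.76e-05), as were AT1G65490 (-0.81), AT1G13610 (-0.69) and AT3G44450 (-0.52). The AT3G44450 call ended without WT FR24 replicate 2, pifq FR24 replicate 1 or pifq FR24 replicate 2 (adjusted p = 0.086, 0.0515 and 0.1). At WL24 AT2G27420 differed between the lines by 0.04 ± 0.15 (adjusted p = 0.906).

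**Figure D5:**
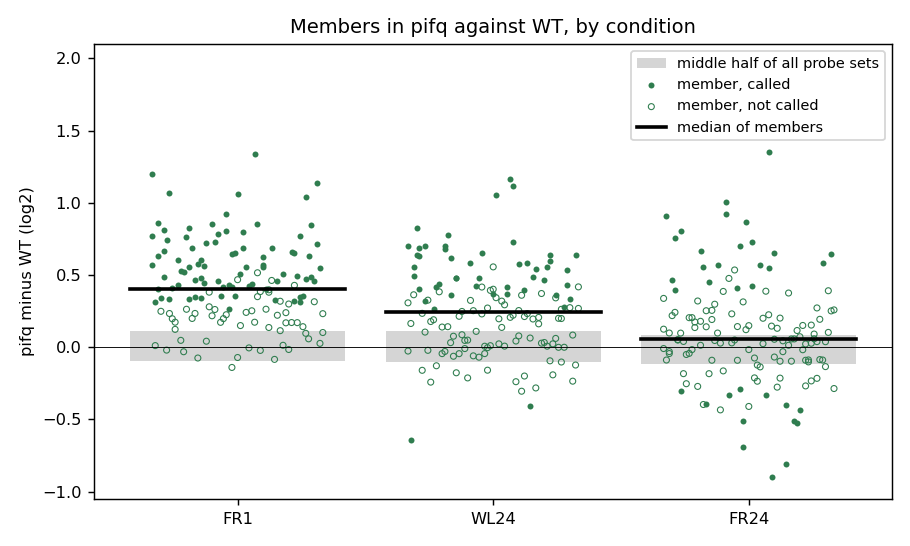
pifq minus WT (log2, limma) for each of the 138 members at FR1, WL24 and FR24, filled where called; grey spans the middle 50% of all probe sets and black bars mark the members' medians of 0.41, 0.24 and 0.06. At FR1 all 81 called members lie above 0.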

How the data were processed

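Whole seedlings of 2 genotypes in 5 light conditions were measured on 30 Affymetrix arrays, 3 per group. The deposited table holds log2 values made by RMA, per the submitters' processing notes; RMA normalizes all arrays together, and its settings are not given in the sources used here. The values were used as deposited. The 64 control probe sets were left out, and 22746 remained. Arrays have no read depth; their number per group limits the precision.

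All arrays entered a single limma model (limma 3.58.1, R 4.3.3) that estimates each group's mean (20 residual and 9.44 prior degrees of freedom), with two-sided tests and Benjamini-Hochberg adjustment over all probe sets, and was tested on simulated data. The differences in the 6 tested comparisons use no WL0 or FR3 array. Those arrays do enter the shared estimate of spread behind every SE and adjusted p-value. Groups came from the sample labels. Genes were assigned through the platform annotation and the RefSeq gene table (TAIR10.1), whose coordinates were used only for gene order.

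The members and gene lists were chosen with earlier results of these data known. Named members are those with 1 locus and a symbol, the 12 loci with the largest mean fall, the largest 24 h and genotype differences in each direction among called loci, the members nearest the threshold, and those on a gene list. Alternatives covered the spread estimate, the replicate block, array weights, centring, a brightness filter, the fold threshold, the control group and leaving out each array.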

Additional observations from a re-analysis of the deposited data

Results flagged for a closer look

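The 24 h response to far-red light differed between the lines for 8 of the named loci, by limma's interaction test with Benjamini-Hochberg adjustment over all probe sets. Each value is the pifq difference minus the wild-type difference (log2).

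For 5 loci FR24 was above WL24 in the wild type, and in pifq this difference was smaller or was not seen. AT2G27420 had an interaction of -0.94 (2.16 in the wild type and 1.22 in pifq, adjusted p = 0.00714). AT3G44450 had -0.90 (1.82 and 0.93, adjusted p = 0.00696). AT3G04650 had -0.63 (0.43 and -0.20, adjusted p = 0.00259). AT2G34080 had -0.64 (0.66 and 0.03, adjusted p = 0.0456), a call that ended without any 1 of 7 of the 12 arrays (adjusted p up to 0.145). AT3G28270 had -0.43 (0.58 and 0.16, adjusted p = 0.0451), a call that ended without any 1 of 10 of the 12 arrays (adjusted p up to 0.116).

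For the other loci FR24 was below WL24 in the wild type, and in pifq this difference was smaller or was not seen. AT1G10640 had 1.55 (-1.91 and -0.35, adjusted p = 7.95e-07), and AT4G02850 had 0.77 (-1.40 and -0.64, adjusted p = 0.00863). AT3G27400 had 0.69 (-0.67 and 0.02, adjusted p = 0.0259), a call that ended without any 1 of 6 of the 12 arrays (adjusted p up to 0.0824).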

How the results depend on the processing

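The counts of called members are given in the order far-red against white light at 24 h in the wild type and in pifq, their interaction, and pifq against the wild type at FR1, WL24 and FR24. They were 85, 54, 17, 81, 48 and 35 of 138 members. With the replicate number as a block they were 85, 52, 20, 82, 50 and 35. Same-numbered arrays correlated at -0.133 to 0.189 in their deviations, and 3 of 21 pairs exceeded 0.1. The best partner shared the number in 9 of 21, among them all 3 of pifq FR3 against WL0 (0.173, 0.0861 and 0.144). With 3 arrays per group this cannot settle whether the numbers pair the samples. The block ended the pifq 24 h calls of AT1G10640 and AT2G40435 (adjusted p = 0.0549 and 0.0529). Fitting only the arrays compared, so without WL0 and FR3, gave 81, 46, 9, 86, 28 and 32. Of all probe sets 18.5%, 7.41%, 1.71%, 10.8%, 2.51% and 5.39% were then called. The AT4G02850 interaction was not called in that fit (adjusted p = 0.0648). A trended, robust prior gave 26 for the interaction. Keeping only brighter probe sets left 133 members and gave 87, 55, 26, 86, 56 and 39 calls. Of all probe sets kept, 39.8%, 23.7%, 7.71%, 27.2%, 16.8% and 16.1% were then called. Without that filter the shares were 23.2%, 14.8%, 3.75%, 13.6%, 8.6% and 8.31%. With a 1.5-fold threshold there were 807 members and 429, 252, 91, 382, 222 and 164 calls. With a 3-fold threshold there were 23 members and 16, 12, 3, 18, 8 and 5 calls. The 59 members with 1 locus gave 38, 24, 8, 27, 16 and 20. Among these the interaction was negative for 5 and positive for 3, against 13 and 4 of all members, and the wild-type 24 h median was 0.09 against 0.30. Leaving out 1 array gave 78 to 84, 45 to 50, 11 to 19, 65 to 78, 35 to 48 and 27 to 31, the lowest interaction count being without WT FR24 replicate 3, and 109 to 170 members.

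Taking WL0 as the control of FR24, which shares arrays with the choice of members, gave 124 calls in the wild type (106 lower) and 125 in pifq (113 lower). It turned the sign of the wild-type value for RH39 (-1.47), GTR1 (-0.71), AT1G06000 (-1.58), AT5G62210 (-0.39), AT2G43550 (0.39), AT2G34080 (-1.11), AT3G04650 (-1.24), AT4G34290 (-2.23) and 255465_at (-1.41). In pifq it did so for RH39 (-1.77), Prx37 (-1.72), GTR1 (-0.92), AT2G23910 (-0.11), AT1G06000 (-1.74), AT1G60590 (-0.35), AT5G62210 (-1.12), AT1G13610 (-0.33), AT3G27400 (-1.99), AT2G34080 (-1.35) and 255465_at (-1.49). These seedlings are 24 h older than WL0, so age and light cannot be told apart there. Promoter motifs were not run, as no promoter table was used here.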
